A study of Arabidopsis thaliana with 12 samples.

Results

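Sulfate enters plant metabolism through a short chain of enzymes, and the 10 genes described here encode its first steps in the thale cress Arabidopsis thaliana. They were chosen by name and function, though with earlier results of these data known: the ATP sulfurylases ATPS1 (AT3G22890), ATPS2 (AT1G19920), ATPS3 (AT4G14680) and ATPS4 (AT5G43780), the adenosine 5'-phosphosulfate (APS) reductases APR1 (AT4G04610), APR2 (AT1G62180) and APR3 (AT4G21990), the sulfite reductase SIR (AT5G04590), and the APS kinases APK1 (AT2G14750) and APK2 (AT4G39940). All 10 were found by locus identifier among the 32833 loci of the expression table, and all 10 passed the minimum for testing, as did 19127 loci in all. ATP sulfurylase joins sulfate to ATP to make APS, the activated form of sulfate. APS then has alternative fates: APS reductase makes sulfite, which SIR reduces to sulfide for cysteine synthesis, whereas APS kinase makes PAPS, the sulfate donor for glucosinolates and other sulfated compounds. In Arabidopsis, APS reductase is known as a strongly regulated step of the reductive branch, its transcripts rise when sulfur is short, and several ATP sulfurylase transcripts are known targets of the microRNA miR395.

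The study measured RNA by sequencing in shoots of plate-grown seedlings harvested after 10 days, in 4 groups of 3 libraries. The genotypes were the wild type Columbia-0 (Col-0) and the mutant cdk8-1, whose gene CDK8 encodes the kinase of the Mediator complex, a link between transcription factors and RNA polymerase II. Each genotype was grown either on 1.5 mM magnesium sulfate or on a medium in which magnesium chloride took the place of the sulfate salt. All plates used reduced-strength Murashige and Skoog medium with agar that had been washed, and all groups carried the same batch label. Only the cdk8-1 allele was examined, no complemented line was among the samples analysed here, and the labels do not say whether the libraries of a group came from separate plates. Each p-value therefore reflects only how far these libraries differ, which may be technical.

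Levels are deposited TPM values, transcripts scaled by gene length and library total, a unit that allows genes to be set side by side, and differences are on the log2(TPM + 1) scale. Between 17441215 and 25175871 reads per library stood behind them. CDK8 was 2.27 lower in cdk8-1 with sulfate and 2.40 lower without it on that scale. Fed refers below to seedlings with sulfate and unfed to those without. Transcript profiles of the sulfate groups differed widely: the summed level of 6 markers of green shoot tissue was 39120 to 40877 TPM in Col-0 with sulfate, 1855 to 1894 without, 42157 to 42353 in cdk8-1 with sulfate and 4608 to 5493 without. All 6 green markers were present in every group. Among 6 root markers, PYK10 made up most of a summed level of 328 to 1229 TPM, the root hair and endodermis markers COBL9, EXPA7, MYB36 and CASP1 had group means of 6.85 TPM or less, and the sulfate transporter SULTR1;1 reached a group mean of 24.7 TPM without sulfate. In whole shoots, fewer cells of a type and less RNA per cell cannot be told apart, and the part of these shifts in the results was not tested.

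Counts of tested genes show how common a change was. A gene was called when limma's two-sided test, fitted over all 4 groups and adjusted by the Benjamini-Hochberg method over the 19127 tested genes, gave an adjusted p under 0.05. Without sulfate, 8 of the 10 genes were called in Col-0, 5 higher and 3 lower, against 84.9% of all tested genes, with 56.1% higher and 28.8% lower. In cdk8-1 the response called 8 of 10, 4 higher and 4 lower, against 81.6% of all tested genes, with 56.9% higher and 24.7% lower. The members' counts are near these shares, so as a list they were called about as often as tested genes in general. In cdk8-1 against Col-0, 1 gene was higher and 3 were lower with sulfate, against a background of 13.7% in all, 8.85% higher and 4.84% lower. Without sulfate 1 was higher and 3 were lower, against 41.3% in all, 26.3% higher and 15.0% lower. The response itself was called as different between genotypes for 1 of the 10 genes, SIR, against 27.0% of all tested genes in either direction and 12.2% in that of SIR. Genes not called may still differ, and the estimate for APK2 (-0.71) was larger than that for SIR (-0.57).

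These shares depend on how libraries are scaled, because the median tested gene was 0.46 higher without sulfate in Col-0 and 0.45 higher in cdk8-1 on the log2 scale. After median-of-ratios scaling, which sets the typical gene near no change, these medians were 0.05 and 0.03, and the share of calls that were higher went from 66.1% to 51.7% in Col-0 and from 69.7% to 51.1% in cdk8-1. For the genotype comparisons that share went from 64.7% to 41.0% with sulfate and from 63.6% to 52.3% without. After scaling, 4 of the 10 genes were higher and 5 lower in Col-0, against 41.9% and 39.1% of tested genes, and 3 were higher and 5 lower in cdk8-1, against 38.7% and 37.1%. Between genotypes, 3 were lower with sulfate, against 6.4% of tested genes, while 4.44% were higher and none of the 10 was, and without sulfate 1 was higher and 4 lower, against 20.9% and 19.0%. For the 10 genes, scaled values are given below where they change a call. The median log2 fold change of the 10 genes was 0.31 in Col-0 and 0.17 in cdk8-1 as deposited, and -0.15 and -0.29 after scaling. The genes are described by enzyme, in the order of the pathway.

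**Figure D1:**
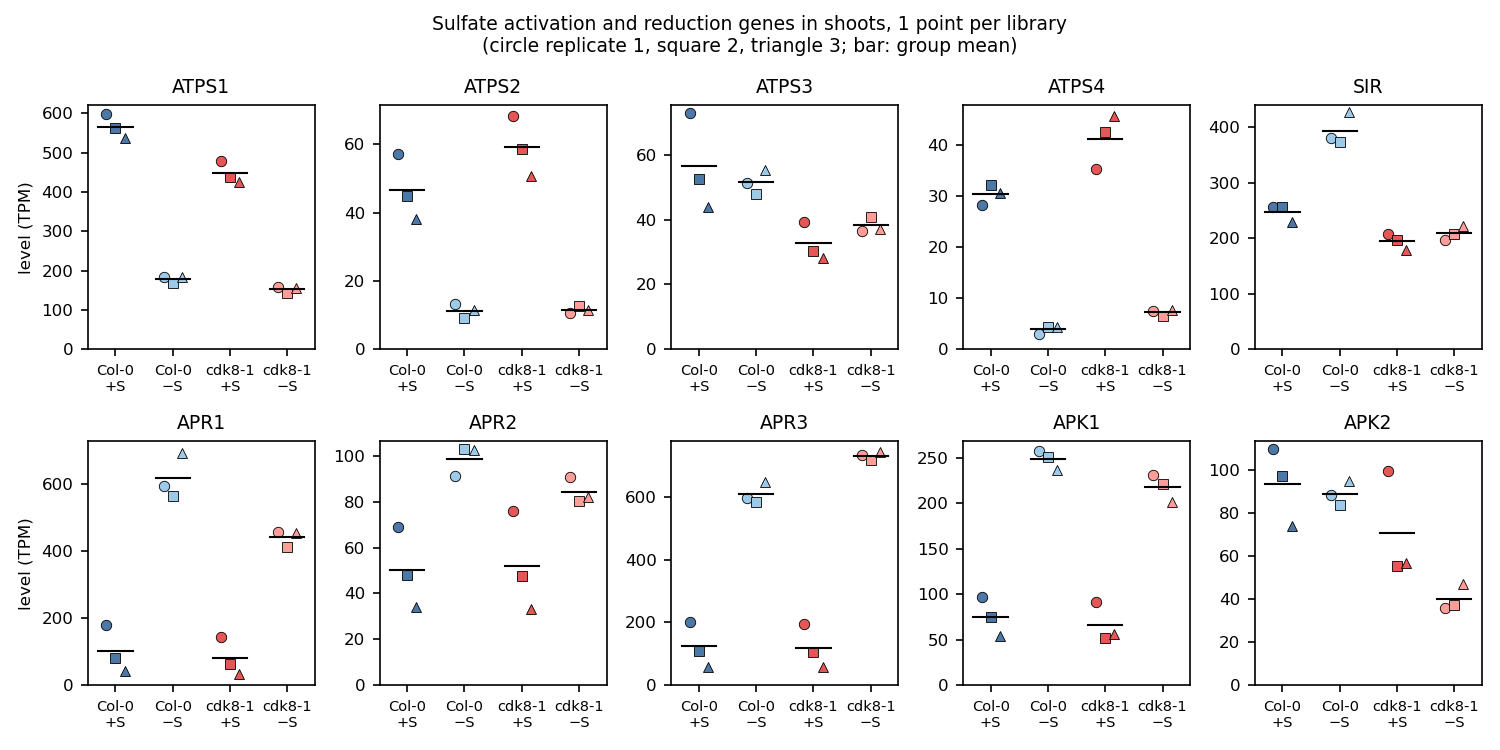
TPM of each gene (vertical axis, from 0) in the 12 libraries by genotype and sulfate supply (horizontal axis; +S with sulfate, −S without), 1 point per library with the shape giving its replicate number and a bar at the group mean. APR1 lies between 33.8 and 178 TPM with sulfate and between 410 and 692 TPM without, and the 3 libraries of a sulfate-fed group are far apart.

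ATP sulfurylase transcripts fell without sulfate, with 1 exception. ATPS1, a plastid enzyme and the most abundant of the 4, had 598, 563 and 537 TPM in the 3 Col-0 libraries with sulfate and 183, 168 and 185 TPM without. In cdk8-1 it had 478, 438 and 426 TPM with sulfate and 158, 143 and 156 TPM without. No fed library overlapped an unfed one in either genotype. Its mean fell 3.17-fold in Col-0 (log2 fold change -1.66, SE 0.065, limma adjusted p = 9.36e-11) and 2.93-fold in cdk8-1 (-1.55, SE 0.065, adjusted p = 3.32e-10). The mutant libraries lay below all wild-type libraries in both media, by 0.34 on the log2 scale with sulfate (adjusted p = 0.00577) and by 0.22 without (adjusted p = 0.0155). The latter was lost without unfed cdk8-1 replicate 2 (-0.18, limma adjusted p = 0.0641) or without unfed Col-0 replicate 1 (-0.21, 0.0525) or 3 (-0.20, 0.0596). The responses of the genotypes differed by 0.11 (95% interval -0.09 to 0.32, adjusted p = 0.399).

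ATPS4 showed the deepest decline of the 10 genes. It had 28.3, 32.1 and 30.5 TPM in Col-0 with sulfate and 3.03, 4.26 and 4.40 TPM without, a level of 65 to 118 reads. In cdk8-1 it had 35.3, 42.5 and 45.6 TPM with sulfate and 7.43, 6.38 and 7.69 TPM without. Fed and unfed libraries were widely apart in both genotypes, and the mutant libraries were above the wild-type ones in both media. The mean fell 7.78-fold in Col-0 (log2 fold change -2.69, SE 0.13, limma adjusted p = 5.45e-10) and 5.74-fold in cdk8-1 (-2.36, SE 0.13, adjusted p = 3.01e-09). Without sulfate ATPS4 was 0.75 higher in cdk8-1 (SE 0.13, adjusted p = 0.000535), so that ATPS4 and ATPS1 were called in opposite directions between genotypes. With sulfate it was 0.42 higher (adjusted p = 0.0475), a call that was lost after median-of-ratios scaling (adjusted p = 0.111).

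ATPS2, which encodes an isoform found in plastids and cytosol, also fell. Its levels were 57.2, 44.7 and 38.2 TPM in Col-0 with sulfate and 13.2, 8.95 and 11.3 TPM without. In cdk8-1 they were 68.4, 58.7 and 50.6 TPM with sulfate and 10.5, 12.7 and 11.3 TPM without. Every unfed library lay below every fed one, while the genotypes overlapped in both media. Log2 fold changes were -1.97 in Col-0 (SE 0.16, limma adjusted p = 1.07e-07) and -2.26 in cdk8-1 (SE 0.16, adjusted p = 3.89e-08). The genotypes differed by 0.34 with sulfate (95% interval -0.01 to 0.70, adjusted p = 0.180) and by 0.05 without (-0.30 to 0.40, adjusted p = 0.825).

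ATPS3 was the exception. Its levels were 73.1, 52.5 and 43.9 TPM in Col-0 with sulfate and 51.3, 47.9 and 55.5 TPM without, which overlap. In cdk8-1 they were 39.4, 30.4 and 28.3 TPM with sulfate and 36.5, 40.9 and 37.3 TPM without, which overlap as well. The sulfate difference was -0.10 in Col-0 (limma adjusted p = 0.564) and 0.23 in cdk8-1 (adjusted p = 0.193). After scaling these became -0.56 (adjusted p = 0.00671) and -0.22 (adjusted p = 0.236), so in Col-0 the call rests on the scaling and in cdk8-1 the sign does. With both replicate 1 libraries of the fed groups left out, the cdk8-1 difference was 0.37 (adjusted p = 0.00346). With sulfate ATPS3 was 0.75 lower in cdk8-1 (SE 0.16, adjusted p = 0.00929) with no overlap, a call that was lost with only the fed groups in the fit (adjusted p = 0.0852). Without sulfate it was 0.42 lower with no overlap at an adjusted p of 0.0521, which passed at 0.0293 after scaling.

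The make-up of the ATP sulfurylase pool differed between the media. Summed over the 4 genes, the level was 699 ± 54 TPM (SD, n = 3) in Col-0 with sulfate and 245 ± 14 TPM without, and 581 ± 37 and 210 ± 5 TPM in cdk8-1. ATPS3 made up 8.00% ± 1.50 of that sum in fed Col-0 and 21.0% ± 0.61 in unfed Col-0. In cdk8-1 its share was 5.60% ± 0.65 and 18.3% ± 1.59. ATPS1 remained the major transcript, with 81.0% ± 1.85 and 72.8% ± 0.63 in Col-0 and 77.1% ± 0.25 and 72.8% ± 2.03 in cdk8-1. These shares are descriptions without a test.

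miR395 pairs with its targets through nearly full complementarity, so its sequence and the matching stretches of the ATP sulfurylase genes are shown to compare members with and without a site. The mature sequences were located at their annotated loci in the RefSeq TAIR10.1 genome and are written as DNA, 5' to 3', with the seed (bases 2 to 8) in capitals.
miR395 of MIR395A, MIR395D and MIR395E: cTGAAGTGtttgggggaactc
miR395 of MIR395B, MIR395C and MIR395F: cTGAAGTGtttggggggactc
The seed letters are the same in all 6 loci. Complementary stretches in spliced transcripts were searched without gaps against both forms, and bases that do not pair are in capitals, G:U pairs included.
ATPS4: gagttccTccaaacacttcaT
ATPS1: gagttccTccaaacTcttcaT
ATPS3: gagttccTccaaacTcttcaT
SULTR2;1: AagttcTcccaaacacttcaA
The ATPS4 stretch lies at chr5:17591121-17591141 on the minus strand and leaves 2 of 21 bases unpaired, 1 of them a G:U pair. ATPS1 (chr3:8113164-8113184, plus strand) and ATPS3 (chr4:8414958-8414978, minus strand) carry the same 21 letters and leave 3 unpaired, and all 3 stretches are in coding exon 1. SULTR2;1, a sulfate transporter of the vascular tissue and a known target, leaves 3 unpaired at chr5:3193268-3193288 on the plus strand. Of 27444 genes searched, 8 had a stretch with at most 3 unpaired bases, which is 0.0292%. The best stretch in ATPS2 left 8 bases unpaired, and the best in the other 6 genes left 7 to 9.

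In the deposited values, genes with a site and genes called lower were not the same set, and a part of miR395 in the declines was not tested. ATPS4 and ATPS1 have a site and fell in both genotypes. ATPS3 has the letters of ATPS1 and was not called lower in the deposited values. After scaling ATPS3 was called lower in Col-0 (-0.56, limma adjusted p = 0.00671) but not in cdk8-1 (-0.22, adjusted p = 0.236). ATPS2 has no such site and fell by 1.97 and 2.26 on the log2 scale. Other genes with at most 3 unpaired bases went both ways, given here as fed and unfed group means without a test. LAC7 rose from 1.28 to 33.6 TPM in Col-0 and from 2.33 to 26.2 TPM in cdk8-1. AT4G23840 rose from 6.23 to 15.7 TPM and from 6.89 to 16.15 TPM. AT2G28780 fell from 2.59 to 0.12 TPM and from 0.77 to 0.19 TPM, and AT1G50930 had 0.17 TPM or less in every group. SULTR2;1 had 108, 98.3 and 110 TPM in fed Col-0 and 66.8, 59.0 and 57.7 TPM in unfed Col-0, a log2 fold change of -0.78 (SE 0.09, limma adjusted p = 4.73e-06) that was -1.23 after scaling. In cdk8-1 it had 80.5, 71.8 and 67.5 TPM fed and 70.3, 55.8 and 61.1 TPM unfed, a log2 fold change of -0.23 (adjusted p = 0.0368), and the groups overlapped. That call was lost with only the cdk8-1 groups in the fit (adjusted p = 0.0561) and with both fed replicate 1 libraries left out (-0.16, adjusted p = 0.155), while scaling gave -0.69 (adjusted p = 1.69e-05). The responses of SULTR2;1 differed by 0.55 (SE 0.13, adjusted p = 0.00906). The match is a description of letters, not evidence that cleavage took place.

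The miR395 precursors themselves were seen in these libraries, a list added after its values were known. Over the 6 loci, the fed libraries held 0, 1 and 4 reads in Col-0 and 2, 1 and 0 reads in cdk8-1. Unfed libraries held 215, 178 and 319 reads in Col-0 and 227, 233 and 188 reads in cdk8-1. MIR395E alone gave 577 of the 712 unfed Col-0 reads and 501 of the 648 unfed cdk8-1 reads, against 1 read in each fed group. The 5 precursors that passed the filter did so through their unfed libraries. All 5 were called higher without sulfate, against 56.1% of all tested genes in Col-0 and 56.9% in cdk8-1. With fed libraries near 0, the filter largely fixed this outcome, so the calls add nothing to the read counts. By limma none of the 5 was called between genotypes, nor had an unadjusted p under 0.05, MIR395E with a difference of -0.08 without sulfate (SE 0.28, limma adjusted p = 0.856). These are reads on precursor RNA in libraries made for long RNA; mature miR395 was not measured, and loci with like sequence may share reads.

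**Figure D2:**
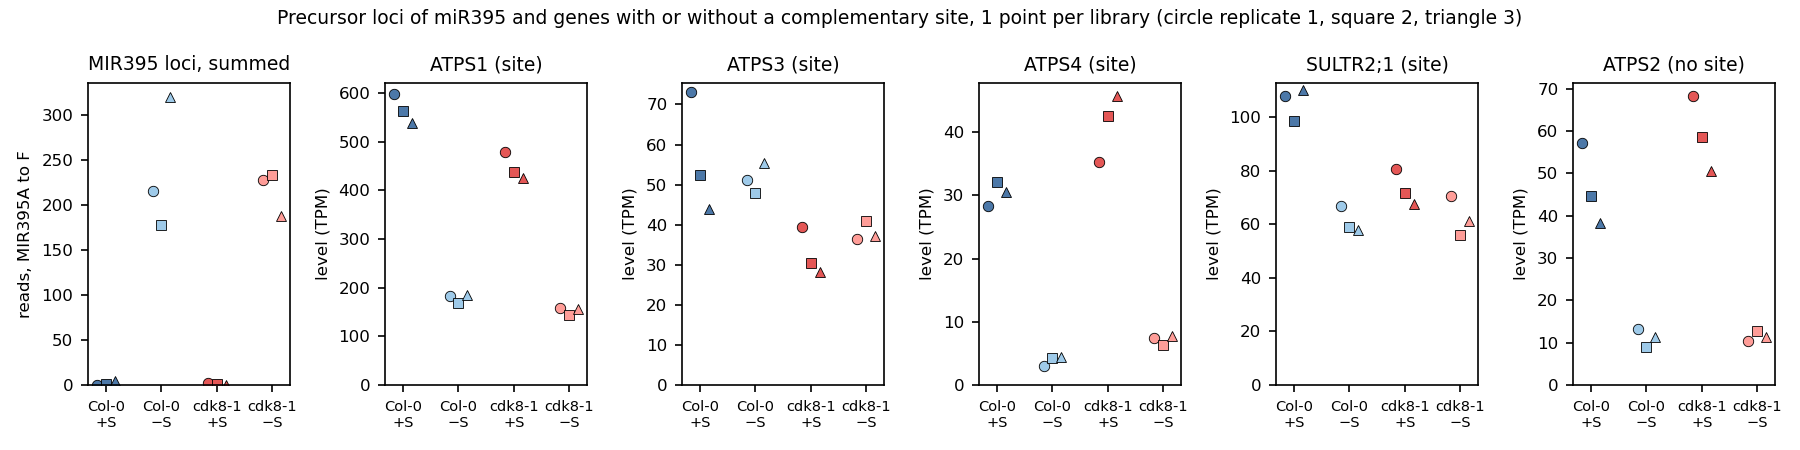
Reads on the 6 miR395 precursor loci, summed per library (first panel), and TPM of ATPS1, ATPS3, ATPS4 and SULTR2;1, which carry a complementary site, and of ATPS2, which does not, by genotype and sulfate supply, 1 point per library. Precursor reads are 0 to 4 with sulfate and 178 to 319 without, ATPS1 and ATPS4 are lower in every unfed library, ATPS3 overlaps, and ATPS2 is lower without having a site.

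APS reductase transcripts rose without sulfate in both genotypes. APR1 had 178, 81.9 and 41.5 TPM in fed Col-0 and 593, 562 and 692 TPM in unfed Col-0. In cdk8-1 it had 143, 61.1 and 33.8 TPM fed and 456, 410 and 453 TPM unfed. Unfed libraries were far above fed ones, and the fed libraries of each genotype were far from each other. Log2 fold changes were 2.84 in Col-0 (SE 0.49, limma adjusted p = 0.000125) and 2.70 in cdk8-1 (SE 0.49, adjusted p = 0.000214). APR3 had 203, 109 and 58.8 TPM in fed and 598, 584 and 648 TPM in unfed Col-0, and 193, 107 and 58.1 TPM in fed and 735, 720 and 744 TPM in unfed cdk8-1. It rose by 2.47 (SE 0.41, adjusted p = 9.27e-05) and 2.77 (SE 0.41, adjusted p = 3.81e-05), again without overlap.

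APR2, the isoform known in Arabidopsis for most of the enzyme activity in leaves, moved least. Its levels were 69.2, 48.0 and 34.1 TPM in fed and 91.1, 103 and 103 TPM in unfed Col-0. In cdk8-1 they were 76.0, 47.6 and 33.0 TPM fed and 90.8, 80.5 and 82.2 TPM unfed. The unfed libraries lay above the fed ones in both genotypes. It rose by 1.01 in Col-0 (SE 0.26, limma adjusted p = 0.00306) and 0.76 in cdk8-1 (SE 0.26, adjusted p = 0.0173), but neither passed after scaling, at 0.56 (adjusted p = 0.0707) and 0.31 (adjusted p = 0.309). The cdk8-1 rise was also lost without fed cdk8-1 replicate 3 (0.48, adjusted p = 0.0884). Of its exon bases, 46.4% overlap exons annotated on the opposite strand, so its level relative to APR1 and APR3 is uncertain. The genes whose spans cross that of APR2 there are AT1G62170 and AT1G08477, and the exon overlap was not split between them. In the other 9 genes the overlap is 6.11% at most. Its share of the summed reductase level went from 20.3% ± 5.00 to 7.49% ± 0.65 in Col-0 and from 22.3% ± 4.00 to 6.72% ± 0.33 in cdk8-1.

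Without sulfate, the genotypes stood apart in opposite ways for APR1 and APR3. All 3 unfed cdk8-1 libraries lay below the Col-0 libraries for APR1 (410 to 456 against 562 to 692 TPM) and above them for APR3 (720 to 744 against 584 to 648 TPM). Such separation was common, with 22.2% of tested genes lower and 35% higher in all mutant libraries. In the fit over all 4 groups neither passed, with log2 differences of -0.48 for APR1 (95% interval -1.54 to 0.58, limma adjusted p = 0.465) and 0.27 for APR3 (-0.63 to 1.16, adjusted p = 0.639). That fit uses 1 spread per gene for all groups, and the spread of both genes was widest in the fed libraries. When only the 6 unfed libraries entered the fit, both passed, at adjusted p = 0.00207 for APR1 and 0.00426 for APR3. In that fit 9 of the 10 genes were called, 2 higher and 7 lower, against 45.5% of all tested genes. The ratio of APR3 to APR1 was 1.01, 1.04 and 0.94 in the unfed Col-0 libraries and 1.61, 1.75 and 1.64 in the unfed cdk8-1 libraries. In fed libraries it was 1.14, 1.33 and 1.42 in Col-0 and 1.35, 1.75 and 1.72 in cdk8-1, which overlap. Summed over the 3 reductases, unfed libraries held 1281, 1249 and 1443 TPM in the wild type and 1282, 1211 and 1279 TPM in the mutant, which overlap too.

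The fed libraries carried a pattern of their own. APR1, APR2 and APR3 were highest in replicate 1, lower in replicate 2 and lowest in replicate 3 of both genotypes, as were ATPS1, ATPS2 and ATPS3. In fed Col-0, 8 of the 10 genes were highest in replicate 1, and in fed cdk8-1 9 of 10 were, the exception in the latter being ATPS4. In the unfed groups the most that any replicate led was 7 of 10. Deviations from group means correlated at r = 0.995 between APR1 and APR3 and 0.982 between APR1 and APR2 over the 12 libraries, which share these groups and their replicate numbers; ATPS4 went the other way, with r = -0.45 against APR1. These are descriptions, and replicate numbers have no order in the labels. Replicate 1 of fed cdk8-1 also held 144 TPM of 4 seed storage markers, against 3.42 TPM or less in the other 11 libraries; their part in the pattern was not tested. With both of these replicate 1 libraries left out, the log2 rise of APR1 was 3.37 in Col-0 and 3.24 in cdk8-1 and that of APR3 was 2.91 and 3.20.

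SIR, the single-copy sulfite reductase of Arabidopsis, was the gene whose response differed between genotypes. It had 255, 257 and 228 TPM in fed Col-0 and 380, 374 and 427 TPM in unfed Col-0. In cdk8-1 it had 208, 197 and 179 TPM fed and 196, 208 and 222 TPM unfed. Col-0 rose with no overlap, the cdk8-1 groups overlapped, and in both media the mutant libraries lay below all wild-type libraries. The log2 fold change was 0.67 in Col-0 (SE 0.08, limma adjusted p = 2.88e-06) and 0.10 in cdk8-1 (95% interval -0.07 to 0.27, adjusted p = 0.236). The difference of the responses was -0.57 (SE 0.11, adjusted p = 0.00213). cdk8-1 was lower by 0.34 with sulfate (SE 0.08, adjusted p = 0.0126) and by 0.91 without (SE 0.08, adjusted p = 1.68e-06). The former was -0.28 and did not pass without fed cdk8-1 replicate 3 (adjusted p = 0.0509). After scaling the Col-0 response was 0.21 (adjusted p = 0.0271) and the cdk8-1 response -0.36 (adjusted p = 0.00109), while the difference of the responses stayed at an adjusted p of 0.00256.

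The reductase and SIR lie one after the other in the reductive branch, and their balance differed between genotypes without sulfate. Summed APR over SIR was 1.76, 0.93 and 0.59 in fed Col-0 and 3.37, 3.34 and 3.38 in unfed Col-0. In cdk8-1 it was 1.98, 1.10 and 0.70 fed and 6.53, 5.81 and 5.76 unfed. The fed ranges overlapped and the unfed ranges did not, as a description of transcript levels with no statement on enzyme activity.

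The APS kinases parted. APK1, a plastid enzyme, had 96.6, 75.2 and 53.5 TPM in fed and 258, 251 and 237 TPM in unfed Col-0, and 91.7, 52.3 and 55.8 TPM in fed and 232, 221 and 202 TPM in unfed cdk8-1. It rose by 1.75 in Col-0 (SE 0.21, limma adjusted p = 4.18e-06) and by 1.74 in cdk8-1 (SE 0.21, adjusted p = 5.39e-06), with no overlap in either. Between genotypes the responses differed by -0.01 (95% interval -0.65 to 0.63, adjusted p = 0.981), an interval that leaves room for sizeable differences in either direction. APK2, also a plastid isoform, had 110, 97.5 and 74.0 TPM in fed and 88.6, 83.9 and 94.8 TPM in unfed Col-0, a difference of -0.05 (adjusted p = 0.806) that became -0.51 after scaling (adjusted p = 0.0306). In cdk8-1 it had 99.6, 55.5 and 56.7 TPM fed and 36.0, 37.1 and 46.9 TPM unfed, and it fell by 0.76 (SE 0.20, adjusted p = 0.00372). The fall was smaller without fed cdk8-1 replicate 1 (-0.49, adjusted p = 0.0101) and larger after scaling (-1.22, adjusted p = 0.000115).

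Without sulfate APK2 was 1.15 lower in cdk8-1 than in Col-0 on the log2 scale (SE 0.20, limma adjusted p = 0.000645), the widest genotype difference among the 10 genes, with every mutant library below every wild-type one. The responses of APK2 differed by -0.71 (95% interval -1.33 to -0.09), which did not pass (adjusted p = 0.0875) unless both replicate 1 libraries of the fed groups were left out (-0.56, adjusted p = 0.0456). APK1 made up 44.1% ± 2.48 of the summed kinase level in fed Col-0 and 73.6% ± 1.91 in unfed Col-0. In cdk8-1 its share went from 48.7% ± 0.84 to 84.5% ± 2.89.

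**Figure D3:**
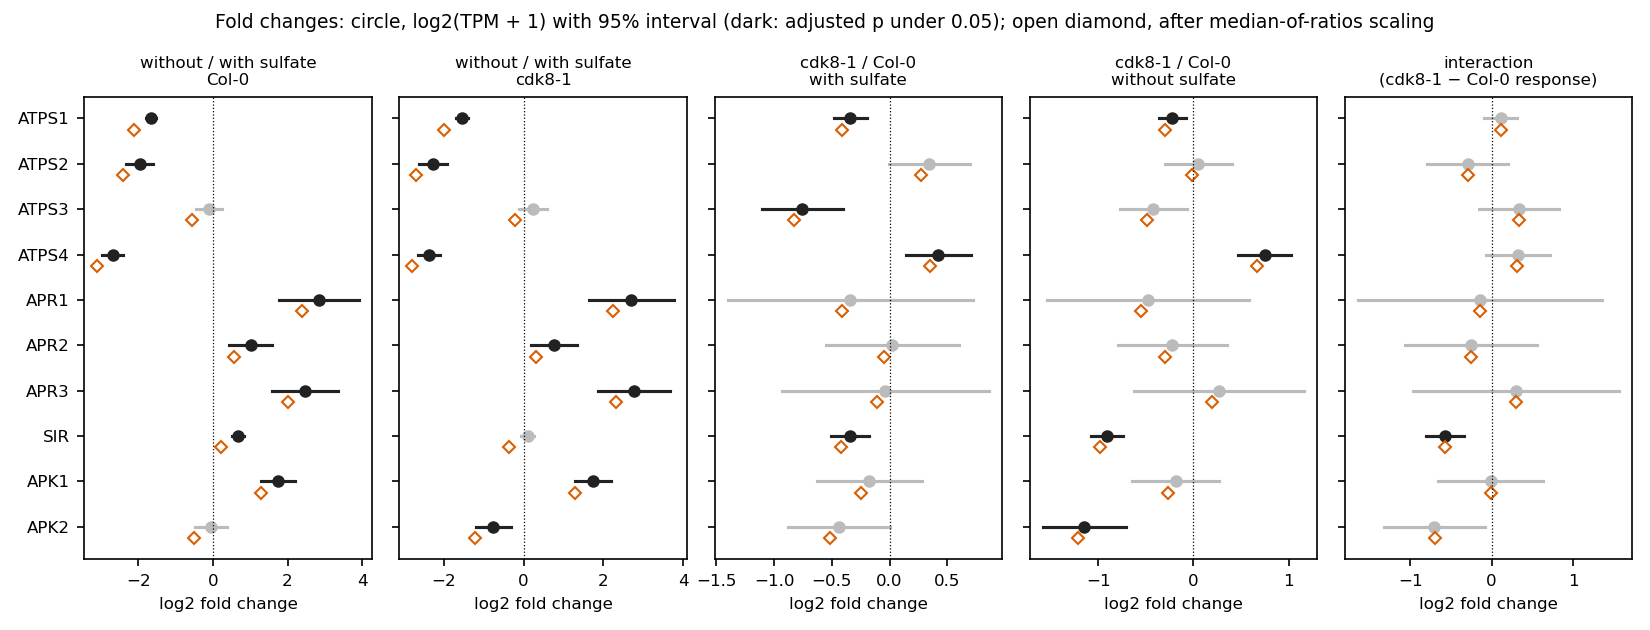
Log2 fold changes of the 10 genes (vertical axis) in the 4 comparisons and the difference of the responses (horizontal axes, log2 scale), with 95% intervals from limma, dark where the adjusted p is under 0.05; open diamonds are the values after median-of-ratios scaling. In the first 2 panels scaling moves every gene to the left by about the same amount, which carries SIR and ATPS3 in cdk8-1 across 0, and in the last panel SIR at -0.57 is the single dark point.

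Side by side, the branch points changed their balance in the same direction in both genotypes. Summed APR over summed ATPS transcripts was 0.59, 0.34 and 0.21 in fed Col-0 and 5.12, 5.44 and 5.64 in unfed Col-0. In cdk8-1 it was 0.66, 0.38 and 0.23 fed and 6.02, 5.95 and 6.02 unfed. Summed APR over summed APK, the enzymes that compete for APS, went from 1.54 ± 0.58 to 3.93 ± 0.37 in Col-0 and from 1.75 ± 0.56 to 4.87 ± 0.24 in cdk8-1. Fed and unfed libraries did not overlap in either ratio, and a ratio within a library does not depend on its scaling.

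**Figure D4:**
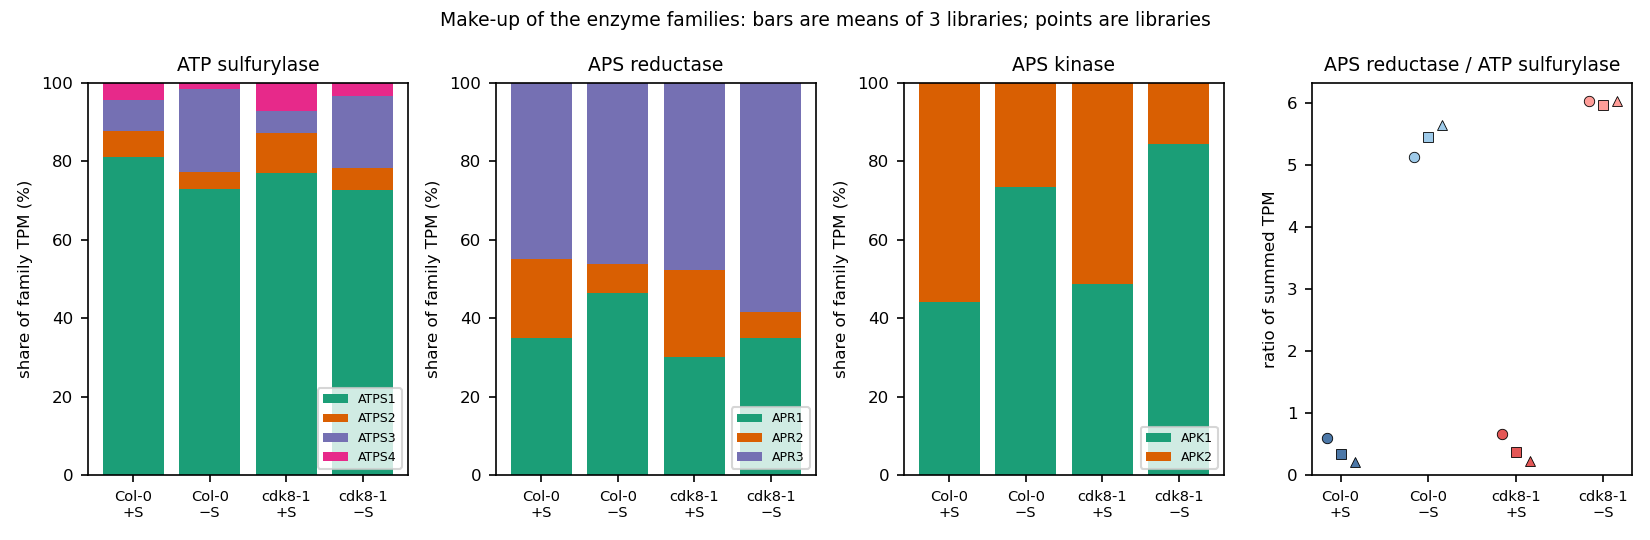
Share of each isoform in the summed TPM of its enzyme family (first 3 panels, percent, bars are means of 3 libraries) and the ratio of summed APS reductase to summed ATP sulfurylase TPM (last panel, 1 point per library with the shape giving its replicate number). ATPS1 is the major ATP sulfurylase in all groups, APR3 reaches 58.3% of the reductase sum in unfed cdk8-1, APK1 goes from 44.1% to 73.6% in Col-0 and from 48.7% to 84.5% in cdk8-1, and the ratio is under 0.67 in all fed and above 5 in all unfed libraries.

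The order of the levels changed accordingly. With sulfate ATPS1 led in both genotypes, with means of 566 ± 30 (SD, n = 3) and 448 ± 27 TPM, followed by SIR with 247 ± 16 and 195 ± 15 TPM. In fed cdk8-1, SIR and APR3 overlapped, as did all lower neighbours. In fed Col-0 the next 7 genes, from APR3 at 123 ± 73 TPM down to ATPS2 at 46.7 ± 9.7 TPM, overlapped each with its neighbour, and ATPS4 at 30.3 ± 1.9 TPM was below all. In unfed Col-0, APR1 (616 ± 68 TPM) and APR3 (610 ± 34 TPM) led and overlapped, ahead of SIR, APK1 and ATPS1. In unfed cdk8-1 APR3 at 733 ± 12 TPM led APR1 at 440 ± 26 TPM with no overlap, and APK1 at 218 ± 15 TPM and SIR at 209 ± 13 TPM overlapped. ATPS4 was last in both unfed groups, at 3.89 ± 0.76 and 7.16 ± 0.69 TPM.

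The other genes with the most similar pattern were taken as the 3 tested genes with the highest Pearson r of log2(TPM + 1) over the 12 libraries, which share the group differences. For APR1 the nearest was AT1G04770 at r = 0.9976, which was also nearest to APR2 at 0.9685. LSU2, a gene of a family named for its response to low sulfur, was nearest to APR3 at 0.9911. The glucosinolate genes CYP79F1, at 0.9947, and CYP79F2, at 0.9583, were nearest to ATPS1 and APK2. For the others the nearest were ELIP2 for ATPS2 (0.9942), IAA2 for ATPS3 (0.9488), PKP-ALPHA for ATPS4 (0.9955), MAPKKK19 for SIR (0.9781) and CLE44 for APK1 (0.9938). No member but APR1, which was second for APR2 at 0.968, was among these nearest genes.

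Reads that fit 2 genes of a family could be lost or split, so the families were compared. Coding sequences were 80.6% identical between APR1 and APR3, 74.2% between ATPS1 and ATPS3 and 63.3% between APK1 and APK2, and 1 stretch of 50 bases was shared in all, between ATPS1 and ATPS3. Promoter windows of 250 bases before to 50 after the annotated start were searched on both strands for GAGAC, the core of an element known from sulfur-responsive promoters, and for the G-box CACGTG. Neither was found in the windows of the 10 genes, against 32.8% and 7.68% of 27443 windows, which says only that these letters are not in these windows.

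Around the 10 genes, most listed genes of cysteine synthesis were called higher without sulfate as deposited, but fewer after scaling. For this and the next lists, the shares of all tested genes were 56.1% higher and 28.8% lower in Col-0, and 56.9% and 24.7% in cdk8-1. After scaling they were 41.9% and 39.1%, and 38.7% and 37.1%. Counts of such short lists are descriptions beside these shares. SERAT2;1, a plastid serine acetyltransferase, had 34.8, 33.0 and 25.0 TPM in fed and 183, 186 and 188 TPM in unfed Col-0, a rise of 2.56 (SE 0.11, limma adjusted p = 2.25e-10). In cdk8-1 it rose by 2.01 (adjusted p = 3.53e-09), and the responses differed by -0.55 (adjusted p = 0.0202). SERAT3;2 went from 4.46 ± 1.14 to 37.1 ± 2.5 TPM in Col-0 and from 4.60 ± 1.60 to 45.9 ± 6.2 TPM in cdk8-1. Of the 8 listed genes, 6 were called higher in Col-0 and 7 in cdk8-1, with 3 higher and 3 lower, and 3 higher and 2 lower, after scaling. Their median was 0.45 and 0.49 as deposited, close to the median of all tested genes.

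Among 6 other enzymes and carriers around PAPS and sulfite, 3 were higher and 1 lower in Col-0 and 2 higher and 2 lower in cdk8-1, with 4 called lower, and all calls in that direction, in both after scaling. TAAC, a nucleotide carrier of plastid membranes, had 20.5, 16.9 and 12.6 TPM in fed and 22.9, 23.9 and 27.1 TPM in unfed Col-0, and 16.5, 14.9 and 15.8 TPM in fed and 8.21, 7.42 and 8.94 TPM in unfed cdk8-1. It was 0.56 higher without sulfate in Col-0 (adjusted p = 0.0024), a call that was lost after scaling (0.12, adjusted p = 0.461), and it fell in cdk8-1 under both. The responses differed by -1.42 (SE 0.20, limma adjusted p = 0.000237). SAL1, the phosphatase that removes the by-product PAP, was 0.44 lower in cdk8-1 without sulfate (adjusted p = 0.00324). AT3G51870 also responded differently, by -0.59 (adjusted p = 0.00915). Sulfite oxidase SOX, APK3 and APK4 were not called for a difference of the responses. Of the 3 glucosinolate sulfotransferases, which use PAPS, 2 were higher and 1 lower in Col-0 and 1 higher and 1 lower in cdk8-1, with 1 and 1 in both after scaling. SOT16 was 0.69 lower in cdk8-1 without sulfate (adjusted p = 0.00433).

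Known regulators of these genes were called in both directions, as tested genes in general were. Of the 8, 7 passed the filter, the exception being MYB76, and 4 were higher and 3 lower in Col-0 and 3 and 3 in cdk8-1. After scaling the counts were 4 and 3 in Col-0 and 3 and 4 in cdk8-1. SLIM1, the central regulator of the sulfur starvation response, had 11.1, 10.4 and 12.2 TPM in fed and 35.4, 34.3 and 35.8 TPM in unfed Col-0, and 12.7, 13.4 and 11.5 TPM in fed and 25.6, 29.8 and 28.7 TPM in unfed cdk8-1. It rose in both, and less in cdk8-1 (difference of the responses -0.47, SE 0.12, limma adjusted p = 0.0119). HY5, a light-signalling factor known to act on APR1 and APR2, had 7.02, 4.89 and 5.39 TPM in fed and 18.8, 16.2 and 14.1 TPM in unfed Col-0, but 8.78, 7.22 and 6.97 TPM in fed and 9.34, 6.15 and 5.86 TPM in unfed cdk8-1. The cdk8-1 difference of HY5 was -0.11 (adjusted p = 0.558), which became -0.52 and passed after scaling (adjusted p = 0.0157). Its responses differed by -1.48 (SE 0.25, adjusted p = 0.00082). MYB122 reached 7.60, 7.08 and 9.64 TPM in unfed Col-0 and 0.68, 0.50 and 0.91 TPM in unfed cdk8-1, from 0.11 TPM or less in every fed library. MYB51 was lower in cdk8-1 by 1.33 with sulfate (adjusted p = 0.00103) and by 1.44 without (adjusted p = 7.73e-05), MYB28 fell without sulfate by 0.65 in Col-0 (adjusted p = 0.000658) and 0.66 in cdk8-1 (adjusted p = 0.000653), with -1.09 and -1.10 after scaling, and MYB29 went from 12.3 and 7.88 TPM to 0.18 TPM or less.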

How the data were processed

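The authors deposited TPM values for 32833 loci in 12 RNA-seq libraries from a directional kit, per the labels. The submitters' processing notes name STAR 2.7.11b, featureCounts 2.0.8 and DESeq2 1.46, with no role for any. The sources used here do not give the genome build or the strand setting of the counting. Exon lengths of RefSeq TAIR10.1 turned 99.39% of the values above 0 into whole reads within 0.01 read, which gave the depths. Loci with a mean of at least 1 TPM were tested with limma 3.58.1 in R 4.3.3 (trended empirical Bayes) on log2(TPM + 1), with 4 group means and Benjamini-Hochberg adjustment over all tested loci. Alternatives covered scaling, pseudocount, filter, column totals, recovered reads (limma voom), groups in the fit, replicate number as a block, and each library left out; leaving out both fed replicate 1 libraries was chosen after seeing the data. Members and lists were chosen with earlier results of these data known. All members and, of each list, up to 6 genes past the test in some comparison could be named; the precursors of miR395 were added after their values were seen. The test was checked on simulated data in which few genes changed and the spread setting was the same in all groups. That check does not cover the widespread changes and uneven spreads of these libraries.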

Additional observations from a re-analysis of the deposited data

Results flagged for a closer look

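The sulfate response of SIR differed between the genotypes by the test of the difference itself, at -0.57 on the log2 scale (SE 0.11, limma adjusted p = 0.00213, n = 3 libraries per group). SIR rose by 0.67 in Col-0, where all 3 unfed libraries lay above the fed ones, and was 0.10 higher in cdk8-1, where the groups overlapped. After median-of-ratios scaling the response was 0.21 in Col-0 (limma adjusted p = 0.0271) and -0.36 in cdk8-1 (adjusted p = 0.00109). Whether SIR rose in Col-0 alone or also fell in cdk8-1 therefore rests on the scaling. Leaving out any 1 library gave differences of -0.63 to -0.51. The summed green shoot markers moved in the same comparisons, falling further in Col-0 than in cdk8-1, and their part in the difference was not tested.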

How the results depend on the processing

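Calls between genotypes were the least stable. With only the compared groups in the fit, all tested genes called with sulfate went from 2618 to 1183 and members called went to 2 with sulfate (0 higher) and to 9 without (2 higher, 7 lower). The higher call of ATPS4 with sulfate was also lost (0 members higher) under median-of-ratios scaling, no filter, a pseudocount of 0.1 and both fed replicate 1 libraries left out, and 9 of the 12 single libraries left out removed it (range 0 to 1), the exceptions being fed cdk8-1 replicate 1 and unfed Col-0 replicates 1 and 3; members called there ranged from 2 to 5. Leaving out both fed replicate 1 libraries gave 2 members lower for the difference of the responses, SIR and APK2. Voom on recovered reads and median-of-ratios scaling both gave 5 members lower in Col-0 without sulfate. Signs turned in values that had not passed: under voom and scaling, respectively, APR2 with sulfate between genotypes was -0.048 and -0.049, ATPS2 without sulfate -0.0031 and -0.017, the sulfate response in cdk8-1 of ATPS3 -0.23 and -0.22 and of SIR -0.36 and -0.36, and under voom the APK1 difference of responses was 0.0035. With both fed replicate 1 libraries left out, that APK1 value was 0.039, APR2 with sulfate -0.029, and the Col-0 responses of APK2 and ATPS3 0.067 and 0.098. Single libraries left out gave ranges across 0 for cdk8-1 against Col-0 with sulfate in APK1 (-0.43 to 0.023), APR1 (-0.88 to 0.19), APR2 (-0.28 to 0.31) and APR3 (-0.48 to 0.41), without sulfate in ATPS2 (-0.086 to 0.17), for the difference of responses in APK1 (-0.21 to 0.24), APR1 (-0.67 to 0.40), APR2 (-0.53 to 0.058) and APR3 (-0.14 to 0.74), and for the Col-0 response in APK2 (-0.21 to 0.07) and ATPS3 (-0.26 to 0.10). The cause was not tested.

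Same-numbered libraries of different groups deviated together with correlations of -0.004 to 0.305 over genes, so not every pair passed 0.1 and the libraries were treated as sharing only a number. Between the fed groups these correlations were 0.305, -0.00011 and 0.157, and not every library correlated best with its own number, although 6 of the 10 genes had the same order of replicates in both. For these genes the unpaired fit counts that shared order as spread. The fed genotype difference of APR1 was -0.34, and -0.35 with both replicate 1 libraries left out, against -0.88 to 0.19 with single libraries left out. By limma neither of the first 2 was called (adjusted p = 0.695 and 0.513), nor was APR1 with the replicate block (0.590). That block has 1 effect per replicate number for all 4 groups, and the unfed APR1 libraries did not have the fed order. The block therefore could not fully remove that order, and its result does not check a pairing of the fed libraries. By replicate number, fed APR1 was 178, 81.9 and 41.5 TPM in Col-0 and 143, 61.1 and 33.8 TPM in cdk8-1, lower in cdk8-1 each time. With the replicate number as a block, ATPS3 without sulfate passed at -0.42 (limma adjusted p = 0.0311), and SIR kept its call for the difference of the responses (adjusted p = 0.0036). Members called without sulfate went from 4 to 5, and the counts in the other 4 comparisons were those reported.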
